A study of Arabidopsis thaliana with 24 samples.

Results

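The type-A ARABIDOPSIS RESPONSE REGULATOR (ARR) genes were followed through 24 RNA-seq libraries of whole Arabidopsis thaliana seedlings. They are ARR3 to ARR9, ARR15, ARR16 and ARR17, picked out by gene identifier, and make up 10 of the 32833 genes listed for each library. The family itself was chosen with earlier results of these data known. The seedlings were of 4 genotypes, all in the Columbia 0 background. These were nrp1 nrp2, which is mutant in a pair of NRP genes, FyPP3DN, nrp1 nrp2 FyPP3DN, which joins both by its label, and wild type (WT). FyPP3DN has a dominant-negative version of FYPP3, itself a PP6-type protein phosphatase catalytic subunit, and the sources used here do not name the promoter driving it. In each genotype, 3 libraries came from seedlings given 5 µM abscisic acid (ABA, the hormone of drought and salt stress) for 24 h, and 3 from control seedlings kept without it for the same time. The sample labels put the seedlings at 5 days of age when treatment began, whereas the design text has 6 days of growth before 1 day of treatment, and the sources used here do not settle which is right. Whether replicates came from separate cultures is not stated, hence p-values here measure only the spread among these libraries, which may be technical.

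Cytokinin, a hormone of cell division and shoot growth, is perceived by membrane histidine kinases. These pass a phosphate through the phosphotransfer proteins (AHP) to the response regulators in the nucleus. Type-B ARR proteins are transcription factors, and among the first genes that they switch on are the type-A ARR genes. Type-A ARR proteins carry the receiver domain without the DNA-binding domain and damp the pathway that induced them, so their transcripts are widely read as a gauge of cytokinin signalling. The family falls into pairs of close relatives, ARR3 with ARR4, ARR5 with ARR6, ARR7 with ARR15, ARR8 with ARR9, and ARR16 with ARR17. ABA and cytokinin are known as antagonists in seedlings, and ABI4, an ABA-linked transcription factor, has been reported to repress ARR6, ARR7 and ARR15.

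In TAIR10.1, 4 of the 10 loci are on chromosome 1: ARR3 (AT1G59940, chr1:22065617-22067233), ARR4 (AT1G10470, chr1:3441988-3444360), ARR7 (AT1G19050, chr1:6577833-6579314) and ARR15 (AT1G74890, chr1:28131447-28133025), each on the minus strand. Chromosome 2 carries ARR8 (AT2G41310, chr2:17221840-17224880) and ARR16 (AT2G40670, chr2:16969673-16972113) on the plus strand. Chromosome 3 carries ARR5 (AT3G48100, chr3:17758427-17760950) on the minus strand and ARR9 (AT3G57040, chr3:21109059-21111567) and ARR17 (AT3G56380, chr3:20905264-20906397) on the plus strand. ARR6 (AT5G62920, chr5:25252007-25254318) is on the minus strand of chromosome 5. The 250 bases before the annotated start are shown for ARR5 and ARR6, the pair with the most calls in the ABA comparisons below, and for ARR7 and ARR15, a second strongly cytokinin-inducible pair. All 4 genes lie on the minus strand of TAIR10.1, whose sequence and gene models are from RefSeq. The windows shown are chr3:17760951-17761200 for ARR5, chr5:25254319-25254568 for ARR6, chr1:6579315-6579564 for ARR7 and chr1:28133026-28133275 for ARR15. Capitals mark AGATT, a core of the sequence bound by type-B ARR proteins, or AATCT, the same core read on the other strand.
ARR5 upstream: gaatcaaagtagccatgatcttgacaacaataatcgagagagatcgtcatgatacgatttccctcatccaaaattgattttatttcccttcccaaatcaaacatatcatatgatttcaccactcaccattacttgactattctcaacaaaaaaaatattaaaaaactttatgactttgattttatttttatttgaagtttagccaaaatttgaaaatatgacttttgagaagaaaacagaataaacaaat
ARR6 upstream: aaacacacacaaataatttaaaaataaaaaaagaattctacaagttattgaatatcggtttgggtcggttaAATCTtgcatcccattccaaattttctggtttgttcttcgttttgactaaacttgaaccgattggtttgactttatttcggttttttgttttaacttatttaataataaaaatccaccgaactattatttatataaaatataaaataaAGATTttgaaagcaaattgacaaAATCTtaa
ARR7 upstream: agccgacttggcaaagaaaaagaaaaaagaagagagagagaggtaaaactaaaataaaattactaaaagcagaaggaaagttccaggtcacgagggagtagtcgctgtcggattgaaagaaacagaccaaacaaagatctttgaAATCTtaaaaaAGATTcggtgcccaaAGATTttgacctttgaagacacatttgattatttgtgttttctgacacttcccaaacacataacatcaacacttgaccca
ARR15 upstream: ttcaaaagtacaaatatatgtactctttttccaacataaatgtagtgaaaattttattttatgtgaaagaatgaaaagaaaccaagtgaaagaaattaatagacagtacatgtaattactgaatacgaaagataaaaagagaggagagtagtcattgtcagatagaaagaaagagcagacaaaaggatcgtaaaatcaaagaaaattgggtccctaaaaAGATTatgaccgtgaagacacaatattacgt
ARR6 and ARR7 held 3 copies of the core each, ARR15 held 1 and ARR5 held 0. In the same window, 7 of the 10 family members held it at least once, against 63.7% of 27443 promoters of this length. CACCG, the element bound by ABI4, was found on either strand in ARR6, ARR7 and ARR16, hence in 3 of 10 members against 11.5% of promoters. ACGTG, the core of the ABA-responsive element, was found in ARR9 alone, hence in 1 of 10 members against 22.9% of promoters. A match describes these letters only and is not a binding site.

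The values are FPKM (fragments scaled to the length of the gene's exons and to the library's mapped fragments), so levels can be set beside each other between genes. Depth was 16.6 to 29.1 M fragments per library, with a median of 19.3 M, and 17893 to 18470 genes reached 1 FPKM. In each group, 1 library was plastid-rich, with 9.61% to 18.8% of its FPKM from plastid-encoded genes, and 2 were plastid-poor, with 0.0252% to 0.0877%. Both poly(A) selection and rRNA removal appear in the extract protocol, which does not tie either to a library. Green shoot genes were abundant throughout, at 22451 to 29811 FPKM in sum over 6 markers, although the marker LHCB1.5, a light-harvesting gene, was listed at 0 in all 24 libraries. Transcripts of the targeted genes followed the labels in part. The labels give no locus for the NRP genes, and AT3G27090 and AT5G42050 were taken as candidates. Another pair of that name, the NAP1-related genes AT1G74560 and AT1G18800, was also tested. In control seedlings of nrp1 nrp2 against WT, limma called neither (0.07 ± 0.16 and 0.11 ± 0.17, log2 difference and SE). AT3G27090 was lower than in WT in control seedlings of nrp1 nrp2 (log2 difference -1.70 ± 0.09, SE, limma, adjusted p = 3.4e-10) and in control seedlings labelled nrp1 nrp2 FyPP3DN (-1.87 ± 0.09, adjusted p = 5.85e-11). AT5G42050 was called higher than in WT in nrp1 nrp2 FyPP3DN (1.1 ± 0.16, limma adjusted p = 0.00324) and did not pass in nrp1 nrp2 (0.85 ± 0.16, adjusted p = 0.0524). FYPP3 was higher than in WT in FyPP3DN control seedlings (1.68 ± 0.20, adjusted p = 0.000139) and did not pass in the +ABA seedlings of that line (0.61 ± 0.20, adjusted p = 0.214). In nrp1 nrp2 FyPP3DN it did not pass in controls (-0.22 ± 0.20, adjusted p = 1) or with ABA (0.04 ± 0.20, adjusted p = 1). A direction drawn from the libraries of these 3 lines therefore rests on the label.

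Over all 24 libraries ARR4 was the most abundant member, with a mean of 30.3 FPKM. ARR9 followed at 13.8, ARR8 at 10.8, ARR7 at 9.11, ARR6 at 8.08 and ARR5 at 5.99 FPKM. ARR3 averaged 2.43, ARR16 1.32, ARR15 0.953 and ARR17 0.104 FPKM. ARR4 stood above ARR9 in 24 of 24 libraries, ARR6 above ARR5 in 24, ARR5 above ARR3 in 24, and ARR15 above ARR17 in 24. The neighbours ARR9 and ARR8 kept their order in 20 of 24 libraries, ARR8 and ARR7 in 18, ARR7 and ARR6 in 17, ARR3 and ARR16 in 18, and ARR16 and ARR15 in 20, so the levels of these neighbours overlapped between libraries. ARR4 alone gave 34.8% to 37.9% of the summed FPKM of the family in each group.

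**Figure D1:**
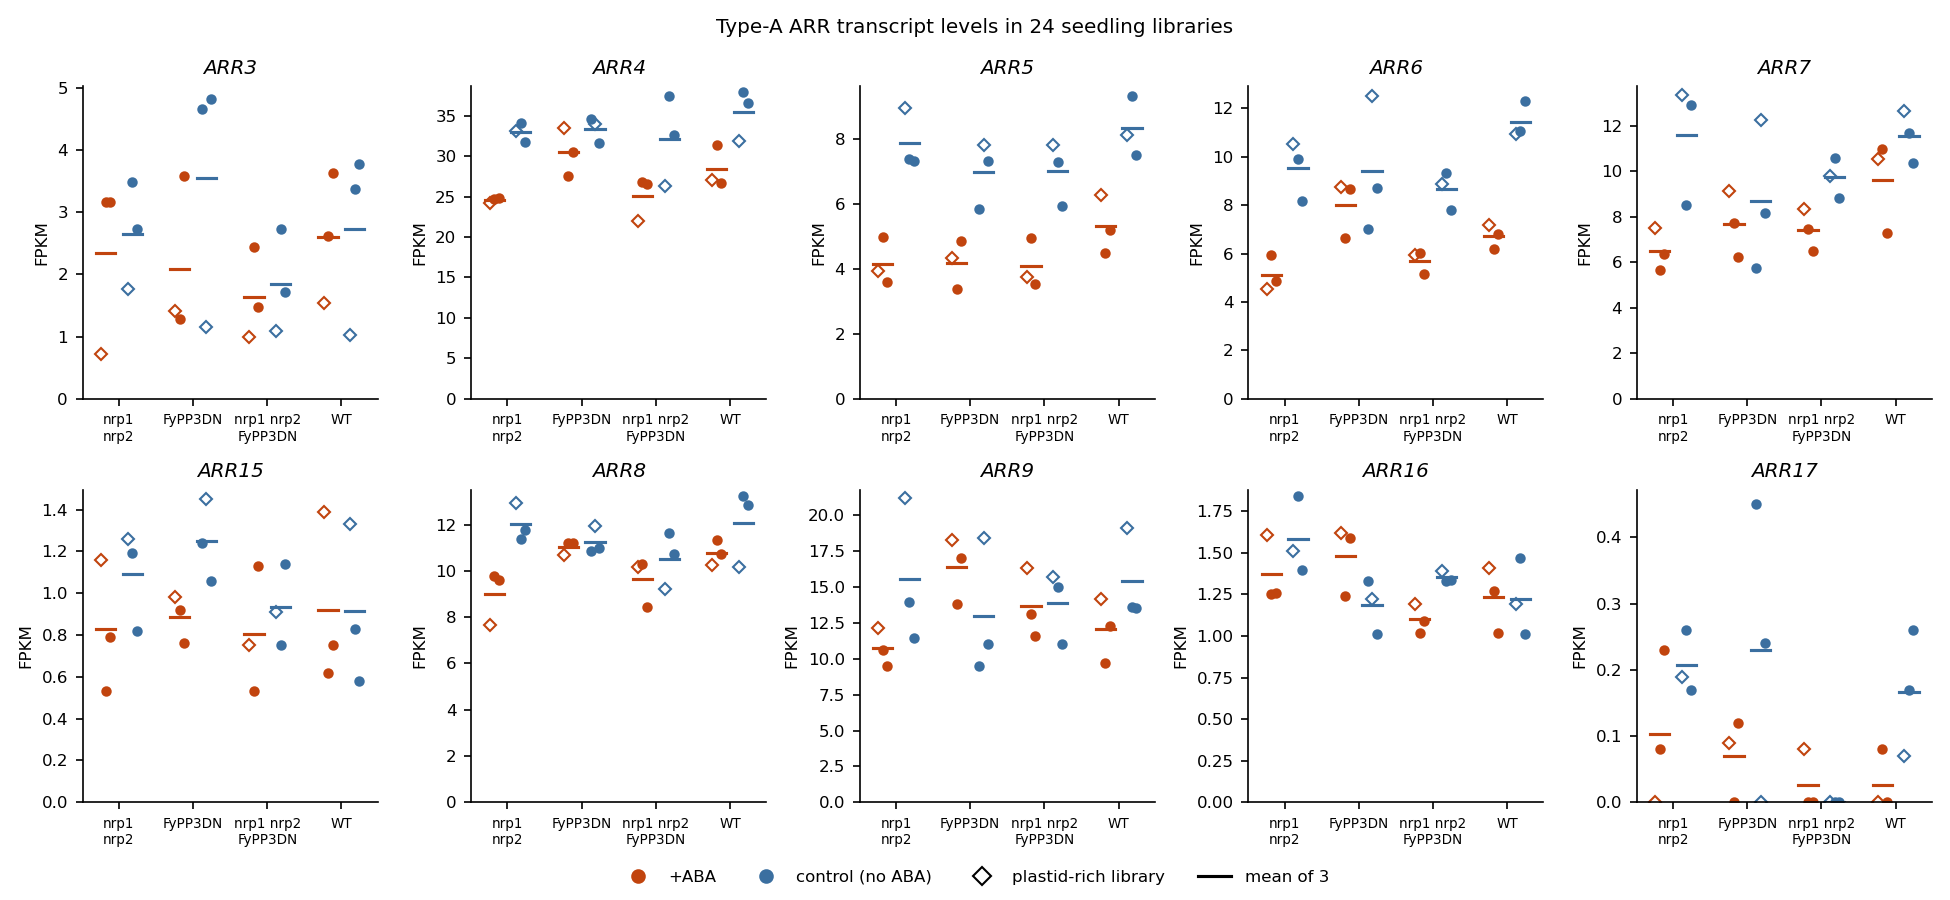
FPKM (vertical axes, from 0) of each of the 10 type-A ARR genes in 24 libraries, by genotype, with +ABA libraries in orange left of control libraries in blue; diamonds are plastid-rich libraries and bars are means of 3 libraries. ARR5 in orange lies below ARR5 in blue within every genotype, whereas the ARR3 diamonds lie below the mean bar in all 8 groups.

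The first comparison asks what 24 h of ABA did to these transcripts, averaged over the 4 genotypes. ARR5, ARR6, ARR7, ARR4 and ARR8 fell, and no member rose. On the log2(FPKM + 1) scale the response was largest for ARR5, a classic cytokinin primary-response gene, with a log2 difference of -0.66 ± 0.08 (SE), and for its closest relative ARR6, with -0.55 ± 0.08. In limma's moderated test with Benjamini-Hochberg adjustment over 19500 genes, the adjusted p was 1.04e-06 for ARR5 and 1.25e-05 for ARR6. Hence 5 of the 9 members tested were called lower at an adjusted p under 0.05, where 11.5% of all genes tested were called lower and 12.8% higher. All 9 had a negative estimate, with a median of -0.20 against 0.0016 over all genes tested. Differences are on the log2(FPKM + 1) scale, which understates the change of weakly expressed genes. In whole seedlings, fewer cells of a type and less RNA per cell cannot be told apart.

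ARR5 showed the pattern in every genotype. Its level was 3.93, 4.96 and 3.58 FPKM with ABA, against 8.94, 7.37 and 7.32 FPKM in control seedlings, in nrp1 nrp2. In FyPP3DN it was 4.32, 3.39 and 4.86 FPKM with ABA, against 5.83, 7.80 and 7.31 FPKM in control seedlings. Every +ABA library lay below every control library in both lines. In the libraries labelled nrp1 nrp2 FyPP3DN, ARR5 was at 3.73, 4.95 and 3.54 FPKM with ABA, against 7.79, 7.29 and 5.92 FPKM in controls. In WT it was at 6.27, 4.47 and 5.20 FPKM with ABA, against 8.11, 9.32 and 7.51 FPKM in controls. The groups did not overlap here either. As a share of the control mean, the ARR5 level with ABA was 52.8% in nrp1 nrp2, 60.0% in FyPP3DN, 58.2% in nrp1 nrp2 FyPP3DN and 63.9% in WT. Its calls rested on 93 to 309 fragments per library, with a median of 184.

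ARR6, the partner of ARR5 and one of the genes ABI4 has been reported to repress, was called in every genotype but FyPP3DN. With ABA it had 4.53, 5.93 and 4.86 FPKM in nrp1 nrp2, against 10.55, 9.90 and 8.16 FPKM in controls. In WT it had 7.20, 6.18 and 6.80 FPKM with ABA, against 10.93, 11.06 and 12.29 FPKM in controls. Both sets were fully apart. In FyPP3DN the +ABA libraries had 8.77, 6.64 and 8.68 FPKM, against 7.00, 12.53 and 8.73 FPKM in controls, and the groups overlapped. The libraries labelled nrp1 nrp2 FyPP3DN had 5.93, 6.02 and 5.15 FPKM of ARR6 with ABA, against 8.89, 9.33 and 7.80 FPKM in controls, without overlap. The +ABA mean was thus 53.5% of the control mean in nrp1 nrp2, 65.7% in nrp1 nrp2 FyPP3DN and 58.9% in WT, but 85.2% in FyPP3DN. The 3′ end of ARR6 overlaps AT5G62910 on the other strand by 348 bases, and since the sources used here do not state the strand setting, reads there cannot be assigned with certainty. AT5G62910 itself stood at 9.71 to 14.5 FPKM with ABA (median 12.6) and at 11.8 to 16.9 FPKM without (median 14.2), a log2 difference of -0.16 ± 0.07 that did not pass (adjusted p = 0.0967).

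ARR7, which the stem-cell factor WUSCHEL is known to repress in the shoot meristem, fell by 0.36 ± 0.10 (log2, SE; adjusted p = 0.0120) over the genotypes. Its lowest, median and highest levels were 5.66, 7.49 and 11.0 FPKM in +ABA libraries, against 5.75, 10.5 and 13.4 FPKM in control libraries, so the ranges overlapped. The groups did not overlap in nrp1 nrp2, at 7.53, 5.66 and 6.36 FPKM with ABA against 13.37, 8.54 and 12.90 FPKM in controls. They were also apart in nrp1 nrp2 FyPP3DN, at 8.36, 7.45 and 6.5 FPKM with ABA against 9.81, 10.60 and 8.82 FPKM in controls. ARR15, its relative, did not pass (-0.14 ± 0.09, adjusted p = 0.297). Its levels were 0.53, 0.775 and 1.39 FPKM with ABA, against 0.58, 1.1 and 1.45 FPKM without. ARR15 rested on 11 to 40 fragments per library and ARR7 on 103 to 290, so the relative counting error was larger for ARR15.

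ARR4, which is known to bind the photoreceptor phytochrome B, fell by 0.30 ± 0.06 (log2, SE; adjusted p = 0.000379). Across the +ABA libraries it ran from 21.9 to 33.4 FPKM with a median of 26.7, against 26.4 to 37.9 FPKM with a median of 33.6 in the controls. The change was small but was measured on an estimated 911 to 1793 fragments per library. ARR3, its relative, did not pass (-0.20 ± 0.21, adjusted p = 0.567) and had the widest error of the 9 tested, with 0.72 to 3.63 FPKM in +ABA libraries (median 1.99) against 1.03 to 4.82 FPKM in controls (median 2.72).

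ARR8 and ARR9, a pair less inducible by cytokinin than ARR5 to ARR7, differed in their calls. ARR8 fell by 0.17 ± 0.06 (log2, SE; adjusted p = 0.0301), with 7.66 to 11.4 FPKM in +ABA libraries (median 10.3) against 9.21 to 13.2 FPKM in controls (median 11.5). That call was lost in 8 of 24 fits that each left out 1 library, with an adjusted p of up to 0.0609. Those libraries were nrp1 nrp2 +ABA replicate 1, nrp1 nrp2 FyPP3DN +ABA replicate 3, WT +ABA replicate 1, and the controls nrp1 nrp2 replicate 1, FyPP3DN replicate 2, nrp1 nrp2 FyPP3DN replicate 2, and WT replicates 2 and 3. ARR9 did not pass (-0.11 ± 0.11, adjusted p = 0.551), at 9.48 to 18.3 FPKM with ABA (median 12.7) against 9.49 to 21.2 FPKM without (median 13.8). RefSeq lists the ARR8 locus, AT2G41310, under the symbol RR3; it is called ARR8 here, and ARR3 is AT1G59940.

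ARR16 and ARR17 were the least informative pair. ARR16 had 1.02 to 1.62 FPKM with ABA (median 1.26) against 1.01 to 1.84 FPKM without (median 1.34), and its difference was -0.02 ± 0.06 (adjusted p = 0.829). ARR17 did not reach 1 FPKM in any library and was not tested. With ABA it was listed at 0, 0.08 and 0.23 FPKM in nrp1 nrp2, 0.09, 0 and 0.12 in FyPP3DN, 0.08, 0 and 0 in nrp1 nrp2 FyPP3DN, and 0, 0.08 and 0 in WT. In controls it was listed at 0.19, 0.26 and 0.17 FPKM in nrp1 nrp2, 0.45, 0 and 0.24 in FyPP3DN, 0 in all 3 libraries of nrp1 nrp2 FyPP3DN, and 0.07, 0.17 and 0.26 in WT. These values stand for 0 to 6 fragments per library, and 10 of 24 libraries were at 0. The ARR17 mean was 0.0567 FPKM in +ABA libraries and 0.151 FPKM in controls, and at so few fragments a change was not tested.

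Members share only short stretches of identical exon sequence, and how far their reads could be exchanged was not tested. The longest stretch of identical exon sequence between any pair was 41 bases, found for ARR3 with ARR4 and for ARR8 with ARR9. Both ARR8 and ARR9 also overlap an antisense non-coding gene, AT2G09250 by 299 bases and AT3G08825 by 231 bases. AT2G09250 was listed at 0 in every library and AT3G08825 at no more than 0.31 FPKM.

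Read within single genotypes, the ABA response was called for 1 to 5 members. In nrp1 nrp2, 5 of 9 fell (all genes tested: 2.87% lower), namely ARR5 (-0.79 ± 0.15, adjusted p = 0.00212), ARR6 (-0.79 ± 0.15, adjusted p = 0.00224), ARR4 (-0.41 ± 0.11, adjusted p = 0.0296), ARR7 (-0.73 ± 0.21, adjusted p = 0.0390) and ARR8 (-0.39 ± 0.11, adjusted p = 0.0416). In FyPP3DN only ARR5 fell among the 9 tested (-0.62 ± 0.15, adjusted p = 0.0155; all genes: 3.04% lower). In the libraries labelled nrp1 nrp2 FyPP3DN, ARR5 (-0.66 ± 0.15, adjusted p = 0.00562) and ARR6 (-0.53 ± 0.15, adjusted p = 0.0264) fell, 2 of 9, where 4.62% of all genes did. In WT, ARR6 (-0.69 ± 0.15, adjusted p = 0.00597) and ARR5 (-0.57 ± 0.15, adjusted p = 0.0226) fell, also 2 of 9, where 3.24% of all genes did. No member was called higher in any genotype, where 3.14% of all genes were in nrp1 nrp2, 2.92% in FyPP3DN, 6.8% in nrp1 nrp2 FyPP3DN and 4.47% in WT. ARR9 in FyPP3DN had the largest positive estimate, 0.36 ± 0.23 (adjusted p = 0.444).

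Several of these calls lay close to the threshold. With any 1 of the 6 libraries left out, nrp1 nrp2 kept 2 or 3 of its 5 calls: ARR5 and ARR6 stayed past the threshold each time, while ARR4 did so in 0, ARR7 in 2 and ARR8 in 1 of the 6 fits. The estimates stayed negative in those fits, at -0.44 to -0.39 for ARR4, -0.92 to -0.62 for ARR7 and -0.44 to -0.28 for ARR8. The FyPP3DN count was 0 without control replicate 2 or 3 or +ABA replicate 2, with ARR5 at -0.73 to -0.51 over the 6 fits. In nrp1 nrp2 FyPP3DN, ARR5 stayed called in all 6 fits and ARR6 in 1 (-0.60 to -0.47), and the count was 1 without control replicate 2 or any 1 of the +ABA replicates. In WT, ARR6 stayed called in all 6 and ARR5 in 2 (-0.67 to -0.47), so the count was 1 without control replicate 1 or 2 or +ABA replicate 2 or 3.

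The labels state no pairing of libraries. In nrp1 nrp2 FyPP3DN, residuals of +ABA and control libraries with the same replicate number were correlated (0.539 to 0.819), as also in nrp1 nrp2 and WT. Replicate 1 is the plastid-rich library in each of these groups, so a pairing and the library type cannot be told apart. With the replicate number as a block in limma, ARR4 was called in nrp1 nrp2 FyPP3DN as well (-0.33 ± 0.11, adjusted p = 0.0425, against 0.0585 without the block). In plastid-poor libraries alone, with 2 against 2 in each genotype, 1 member was called in nrp1 nrp2 (ARR6, -0.65, adjusted p = 0.0435), 0 in FyPP3DN, 0 in nrp1 nrp2 FyPP3DN and 1 in WT (ARR6, -0.76, adjusted p = 0.0145). The ARR5 estimates in these fits were -0.68, -0.57, -0.54 and -0.69 in the same order, with adjusted p from 0.0641 to 0.139.

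ARR5 was the only member called lower in all 4 genotypes, which 224 of 19500 genes were (1.15%). It was also the only one with every +ABA library below every control library in all 4. Without regard to the test, 5 of 10 members were apart in this way in nrp1 nrp2 (ARR4 to ARR8; all genes: 9.35%), 2 of 10 in FyPP3DN (ARR5 and ARR15; 7.02%), 4 of 10 in nrp1 nrp2 FyPP3DN (ARR5, ARR6, ARR7 and ARR16; 12.3%) and 3 of 10 in WT (ARR4, ARR5 and ARR6; 10.9%).

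**Figure D2:**
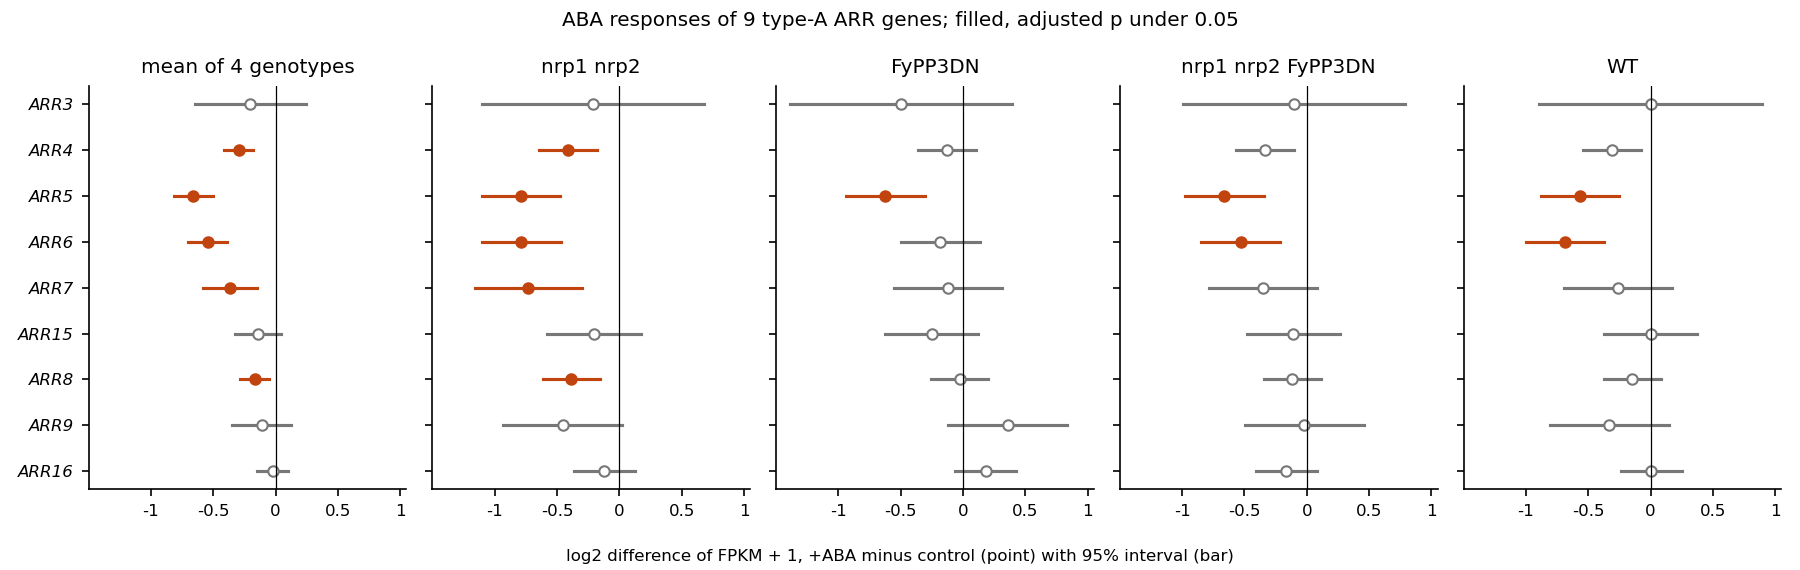
Log2 difference of FPKM + 1, +ABA minus control (horizontal axes), for 9 type-A ARR genes, averaged over the 4 genotypes and in each; points are estimates, bars 95% intervals, and filled orange points have an adjusted p under 0.05. ARR5 is filled in every panel, ARR6 in every panel but FyPP3DN, and ARR7, ARR4 and ARR8 only in the average and in nrp1 nrp2.

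Summed over the 10 members, the family stood at 64.7 ± 1.72 FPKM with ABA and 95.1 ± 8.61 FPKM in controls of nrp1 nrp2 (SD, n = 3 each, as for the following sums). In FyPP3DN the sums were 82.4 ± 7.74 with ABA and 89.0 ± 10.4 FPKM in controls, a gap smaller than the spread. Within that spread the plastid-rich library had the highest sum of each FyPP3DN group, 88.77 FPKM with ABA and 100.77 FPKM in controls. In nrp1 nrp2 FyPP3DN they were 69.2 ± 3.56 with ABA and 86.1 ± 8.63 FPKM in controls. In WT they were 77.6 ± 2.88 with ABA and 99.3 ± 3.14 FPKM in controls. ARR4, the most abundant member, was the largest part of the sum in each group, but the sums need not follow it. In FyPP3DN controls the sums were 81.17, 100.77 and 84.95 FPKM in replicate order. There ARR4 was at 34.56, 34.01 and 31.61 FPKM, whereas ARR9 was at 9.49, 18.42 and 11.03 FPKM. How much each member adds to the differences between sums was not tested.

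Whether the genotypes differ in the ABA response was tested on the differences between responses, and 0 of 9 members passed in any of the 3 tests. For nrp1 nrp2 minus WT (0% of all genes called), all 9 estimates were negative, from -0.47 ± 0.29 for ARR7 to -0.10 ± 0.16 for ARR4, each with an adjusted p of 1, beside a median of -0.04 over all genes. The counts of 5 calls in nrp1 nrp2 and 2 in WT are therefore not shown to differ. For FyPP3DN minus WT (0.144% called), ARR6 had 0.50 ± 0.21 (adjusted p = 0.551) and ARR9 had 0.69 ± 0.32 (adjusted p = 0.602), and these were the only members with an unadjusted p under 0.05. Within FyPP3DN the ARR6 estimate ran from -0.35 to 0.02 as each of the 6 libraries was left out. For nrp1 nrp2 FyPP3DN minus nrp1 nrp2 (0% called), 8 of 9 estimates were positive, the largest being 0.44 ± 0.32 for ARR9 (adjusted p = 0.957), beside a median of 0.09 over all genes. For ARR5 the 95% intervals of the 3 differences were -0.67 to 0.22, -0.50 to 0.39 and -0.32 to 0.57, so differences of that size remain possible.

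Between genotypes at the same treatment, limma called 0 of 9 members in each of 8 comparisons. In control seedlings this was so for nrp1 nrp2 against WT (0.0923% of all genes called in either direction), for FyPP3DN against WT (0.579%), for nrp1 nrp2 FyPP3DN against WT (0.0821%) and for nrp1 nrp2 FyPP3DN against nrp1 nrp2 (0.0462%). ARR6 in nrp1 nrp2 FyPP3DN, at 8.67 ± 0.79 FPKM against 11.4 ± 0.75 FPKM in WT (SD, n = 3 each), was the only member in these 4 with an unadjusted p under 0.05 (-0.36 ± 0.15, adjusted p = 1). ARR7 had the largest estimate in FyPP3DN, -0.42 ± 0.21 (adjusted p = 0.408), at 8.72 ± 3.28 FPKM against 11.6 ± 1.14 FPKM in WT (SD, n = 3 each).

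Under ABA the comparisons were nrp1 nrp2 against WT (0.0667% of all genes called), FyPP3DN against WT (0.892%), nrp1 nrp2 FyPP3DN against WT (0.0872%) and nrp1 nrp2 FyPP3DN against nrp1 nrp2 (0.0103%). ARR7 averaged 6.52 ± 0.94 FPKM in nrp1 nrp2 and 9.61 ± 2.02 FPKM in WT (SD, n = 3 each), a difference of -0.49 ± 0.21 (adjusted p = 1). With ARR6 (-0.34 ± 0.15) and ARR8 (-0.24 ± 0.11) it was 1 of 3 members with an unadjusted p under 0.05 in that comparison. In nrp1 nrp2 FyPP3DN against WT it was ARR5 alone (-0.32 ± 0.15, adjusted p = 1). FyPP3DN against WT and nrp1 nrp2 FyPP3DN against nrp1 nrp2 had no member under that level. These comparisons share their WT or nrp1 nrp2 libraries and are not independent of each other.

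The library type moved with some members within groups, a comparison added after seeing the data. Each plastid-rich library was set against the mean of the 2 plastid-poor ones of its group, on the log2(FPKM + 1) scale. By this measure ARR3 was lower in the plastid-rich library of all 8 groups. In FyPP3DN +ABA, however, the plastid-rich library (1.41 FPKM) lay between the plastid-poor ones (1.28 and 3.58 FPKM). ARR3 had 0.72 to 1.76 FPKM in 8 plastid-rich libraries (median 1.12) and 1.28 to 4.82 FPKM in 16 plastid-poor ones (median 3.16). The difference was -0.84 ± 0.13 (adjusted p = 4.06e-05), where 27.2% of all genes were called lower in plastid-rich libraries. ARR9 was higher in the plastid-rich library of all 8 groups (0.43 ± 0.07, adjusted p = 0.000107), where 14.3% of genes were, with 12.2 to 21.2 FPKM (median 17.3) against 9.48 to 17.0 FPKM in plastid-poor libraries (median 11.9). ARR7 (0.29 ± 0.09, limma adjusted p = 0.0104) and ARR15 (0.22 ± 0.08, limma adjusted p = 0.0394) were also higher. Against the plastid-poor mean this was so in 8 of 8 groups for ARR7 and in 6 of 8 for ARR15. The plastid-rich ARR7 value still lay below 1 plastid-poor library in WT +ABA (10.55 against 10.99 FPKM) and in nrp1 nrp2 FyPP3DN controls (9.81 against 10.6 FPKM). ARR4, ARR5, ARR6, ARR8 and ARR16 did not pass. Beside this, 8 root markers summed to 29.8 to 45.2 FPKM in plastid-rich libraries (median 37.1) and 39.0 to 80.0 FPKM in plastid-poor ones (median 49.3), and their part in the ARR3 difference was not tested.

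**Figure D3:**
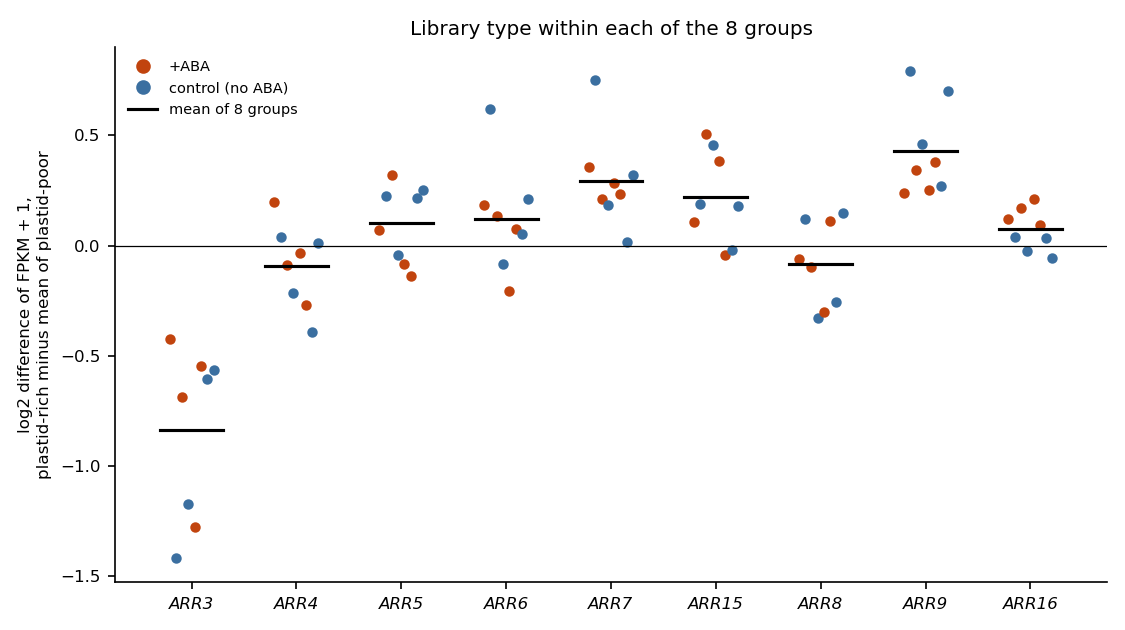
Log2 difference of FPKM + 1 between the plastid-rich library and the mean of the plastid-poor libraries (vertical axis) for 9 type-A ARR genes; each point is 1 of 8 groups, +ABA groups in orange and control groups in blue, and bars are means of 8 groups. All 8 points are below 0 for ARR3 and above 0 for ARR9 and ARR7.

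Since each group has 1 plastid-rich and 2 plastid-poor libraries, the ABA response could be read within each type. In plastid-poor libraries all 5 members remained called on average over the genotypes, namely ARR5 (-0.62, adjusted p = 0.000529), ARR6 (-0.50, adjusted p = 0.000662), ARR4 (-0.33, adjusted p = 0.000735), ARR7 (-0.35, adjusted p = 0.0361) and ARR8 (-0.17, adjusted p = 0.0418). In plastid-rich libraries, 1 per group and fitted with additive terms for genotype and ABA, ARR5 (-0.74, adjusted p = 0.00640) and ARR6 (-0.65, adjusted p = 0.00884) were called. ARR7 (-0.40, adjusted p = 0.0518), ARR4 (-0.24, adjusted p = 0.130) and ARR8 (-0.17, adjusted p = 0.486) were not. All 5 estimates were negative in both types.

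Markers of cells in which cytokinin acts were followed beside these results, where 12.8% of all genes tested were called higher with ABA and 11.5% lower. Of 9 markers of meristem and dividing cells, 7 were tested, and 2 were higher with ABA, WOX5 of the root stem-cell niche (0.59 ± 0.11, adjusted p = 0.000239) and the cell-cycle kinase CDKB1;1 (0.34 ± 0.09, adjusted p = 0.00609). CYCB1;1 had an unadjusted p under 0.05 and was not called (0.18 ± 0.08, limma adjusted p = 0.0917). The 9 markers summed to 29.0 to 40.7 FPKM in +ABA libraries (median 33.1) and 22.0 to 36.0 FPKM in controls (median 28.5). The defining shoot stem-cell markers were near 0, WUS being listed at 0 in 22 of 24 libraries and CLV3 in 11. Of 8 root markers, 0 passed, with sums of 31.7 to 80.0 FPKM in +ABA libraries (median 44.7) and 29.8 to 71.4 FPKM in controls (median 50.2), and COW1 was the only one with an unadjusted p under 0.05 (0.16 ± 0.08, adjusted p = 0.142). Of 6 green shoot markers, LHCA1 was higher (0.22 ± 0.06, adjusted p = 0.0160) and RBCS3B lower (-0.16 ± 0.05, adjusted p = 0.0211) among 5 tested, with sums of 24488 to 29386 FPKM with ABA (median 26898) and 22451 to 29811 FPKM without (median 26582). LHCB1.1 had an unadjusted p under 0.05 and was not called (0.24 ± 0.09, limma adjusted p = 0.0564). The part of all these markers in the type-A ARR response was not tested.

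Around the type-A genes, the ABA response averaged over the genotypes was read for the rest of the cytokinin pathway. As a check of the treatment label, the ABA-induced genes RD29B (3.01 ± 0.17, adjusted p = 5.7e-11), HAI1 (2.63 ± 0.11, adjusted p = 4.06e-13) and RAB18 (2.2 ± 0.32, adjusted p = 2.28e-05) rose. Of the 3 receptor genes limma called 0, and 0 had an unadjusted p under 0.05; AHK4, the main root receptor, had 0.04 ± 0.11 (adjusted p = 0.830). Among 6 phosphotransfer genes, AHP4 rose (1.78 ± 0.11, adjusted p = 1.22e-10) and AHP1 fell (-0.74 ± 0.15, adjusted p = 0.000587). AHP4 averaged 13.1, 12.6, 16.5 and 13.3 FPKM with ABA in nrp1 nrp2, FyPP3DN, nrp1 nrp2 FyPP3DN and WT, against 3.33, 4.97, 2.69 and 2.63 FPKM in their controls. Its sign was opposite to that of the type-A genes called. Of 11 type-B ARR genes, which encode the activators of the type-A genes, 6 were tested and only ARR12 fell (-0.18 ± 0.06, adjusted p = 0.0255). Neither of the 2 type-C genes was expressed enough to be tested.

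The other targets of the pathway were mixed. Of 6 cytokinin response factors, CRF6 fell (-0.85 ± 0.06, adjusted p = 1.21e-09) and CRF3 rose (0.35 ± 0.07, adjusted p = 0.00054). CRF6 averaged 4.25, 4.06, 4.34 and 3.79 FPKM with ABA in nrp1 nrp2, FyPP3DN, nrp1 nrp2 FyPP3DN and WT, against 8.34, 6.37, 9.57 and 8.84 FPKM in their controls, and fell in each genotype. Of 3 further cytokinin-induced genes limma called 0 on average over the genotypes. ASL9, a LATERAL ORGAN BOUNDARIES family gene, was the only one with an unadjusted p under 0.05 (-0.25 ± 0.09, adjusted p = 0.0532). Within FyPP3DN alone, ASL9 was called lower with ABA, 1 of the 3, where 3.04% of all genes were. In the other genotypes 0 of the 3 were called. ASL9 was singled out after its values were seen for a difference between genotypes: with ABA it had 0.35, 0.42 and 0.72 FPKM in FyPP3DN, against 2.16, 1.60 and 2.18 FPKM in WT (limma adjusted p = 0.00908). In that comparison 0.892% of all genes were called. With ABA its estimates against WT were also negative in nrp1 nrp2 (-0.55 ± 0.18) and nrp1 nrp2 FyPP3DN (-0.64 ± 0.18), and neither was called. The difference of its ABA response, FyPP3DN minus WT, did not pass (-1.14 ± 0.26, limma adjusted p = 0.105).

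Genes that make, activate or conjugate cytokinin are read, like the other pathway lists, beside 11.5% of all genes called lower and 12.8% higher. Of 11 synthesis genes, 5 were tested and 2 fell. They were CYP735A2, which hydroxylates cytokinins to the trans-zeatin type (-1.30 ± 0.09, adjusted p = 5.3e-10), and the isopentenyltransferase IPT5 (-0.73 ± 0.10, adjusted p = 6.2e-06). CYP735A2 averaged 0.143, 0.31, 0.253 and 0.23 FPKM with ABA in nrp1 nrp2, FyPP3DN, nrp1 nrp2 FyPP3DN and WT, against 2.35, 2.31, 1.57 and 2.07 FPKM in their controls, with no overlap in any genotype. Of 8 LOG genes, which release active cytokinin, 5 were tested and LOG7 fell (-0.37 ± 0.13, adjusted p = 0.0495). Of 10 genes for breakdown and conjugation, 7 were tested. The glucosyltransferases UGT85A1 (-0.65 ± 0.06, adjusted p = 3.08e-08) and UGT76C2 (-0.55 ± 0.09, adjusted p = 8.97e-05) fell and UGT76C1 rose (0.16 ± 0.04, adjusted p = 0.00851), whereas limma called 0 of the 4 oxidase genes tested. CKX4 (-0.20 ± 0.09) and CKX6 (-0.22 ± 0.08) had an unadjusted p under 0.05. In the other pathway lists, CRF2 (0.18 ± 0.08), ARR14 (0.14 ± 0.06) and LOG8 (0.14 ± 0.06) also had an unadjusted p under 0.05, with positive estimates, and were not called.

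Among ABA factors that have been tied to type-A ARR proteins, ABI5 rose (0.44 ± 0.06, adjusted p = 8.52e-06) and so did the kinase gene SNRK2.6 (0.14 ± 0.04, adjusted p = 0.0277), 2 of 4 tested. ABI4 was not tested: it was listed at 0 in every library of WT and of nrp1 nrp2 FyPP3DN, and its highest level was 0.56 FPKM, in an FyPP3DN control library.

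**Figure D4:**
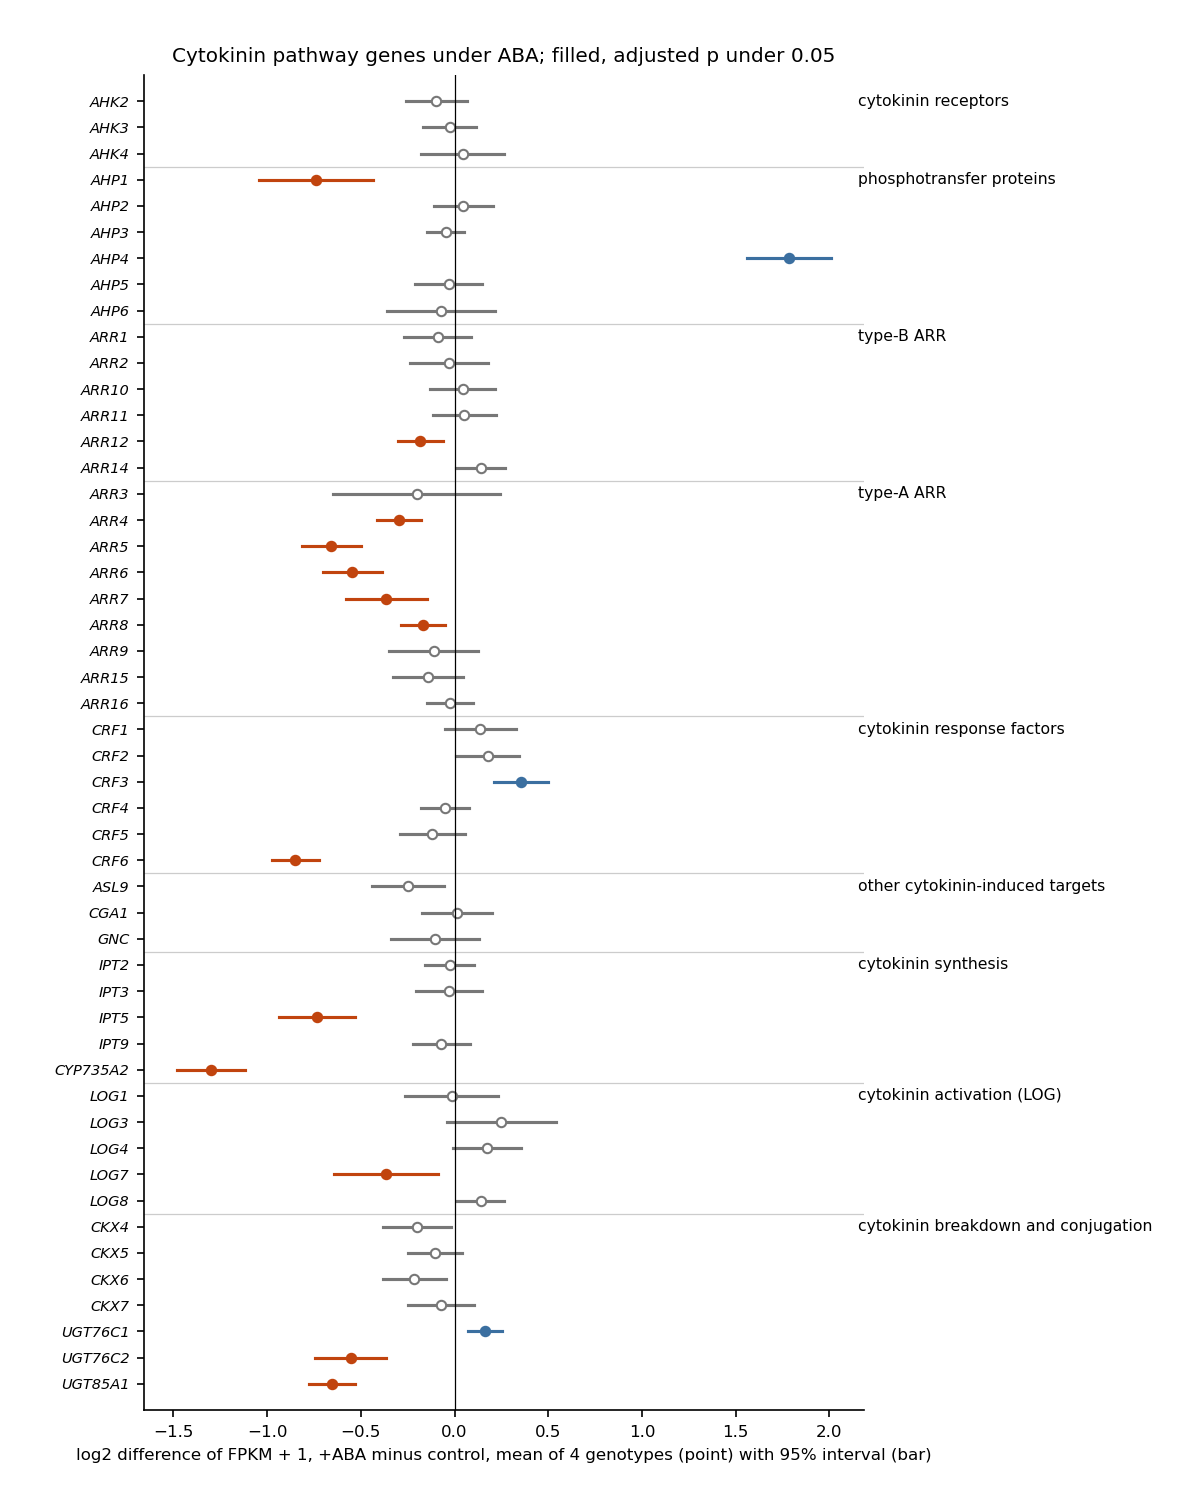
Log2 difference of FPKM + 1, +ABA minus control, averaged over the 4 genotypes (horizontal axis), for cytokinin pathway genes tested, grouped by role; points are estimates, bars 95% intervals, and filled points have an adjusted p under 0.05, orange lower and blue higher. Of the type-A ARR genes 5 are filled and lower, of the receptors 0, and AHP4 lies at 1.78.

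The genes whose 8 group means lay closest to the average profile of the 9 tested members were AT5G19960, AT1G01770, AT5G20990, AT2G41490 and AT3G53670, out of 13279 genes with a mean of at least 5 FPKM. Their root mean square distance from that profile was 0.0486 to 0.0616 on the centred log2 scale, where the profile itself has a root mean square of 0.164. For single members, the nearest gene to ARR5 was AT5G27920 (distance 0.0875 against the profile's 0.349), to ARR6 AT4G35420 (0.0728 against 0.326), to ARR7 AT1G09230 (0.118 against 0.252) and to ARR4 AT3G56680 (0.0428 against 0.176). Members themselves were not candidates. These are likenesses over 8 group means and are given as a description.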

How the data were processed

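RNA from whole seedlings was sequenced in 24 libraries, 8 groups of 3. The deposited values are FPKM, which the authors rounded to 2 decimals. The submitters' processing notes name Trimmomatic 0.30, HISAT2 2.0.1 and TAIR10; the counter, the annotation and the use of strand are not stated in the sources used here. Depth was read from the FPKM steps of genes with exon lengths under 400 bases, where 99.8% to 100% of values lay within 0.1 of a whole fragment; fragments of the family members are FPKM times RefSeq TAIR10.1 exon length and depth, rounded. Before rounding they lay within 0.25 of a whole number in all 24 libraries for ARR3, ARR5, ARR7, ARR15 and ARR17, in 23 for ARR6, ARR9 and ARR16, in 20 for ARR8 and in 16 for ARR4, so those of ARR4 and ARR8 are estimates.

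FPKM was used without rescaling as log2(FPKM + 1). Genes at 1 FPKM or more in at least 3 libraries were tested, 19500 in all and 9 of the 10 family members. limma 3.58.1 (R 4.3.3) fitted 1 mean per group to all 24 libraries with its trended empirical Bayes variance. Beforehand the fit was run on simulated data with independent noise and neither library type nor pairing. The changes planted there were larger than those called for the family members, so that run does not bear on calls of this size. The two-sided p-values of limma received Benjamini-Hochberg adjustment over all genes within each of 16 comparisons. Of other gene lists, up to 3 called genes with the smallest adjusted p were named, plus any gene that a count of 5 or fewer consists of. The family, the lists and the tests were chosen with earlier results of these data known. Libraries were called plastid-rich above 1% of FPKM from plastid-encoded genes.

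Replicate numbers were checked for pairing on the residuals of libraries with the same number. In 12 comparisons every correlation was above 0.1 (lowest 0.153). In the other 4, which include the FyPP3DN control group, the lowest was -0.694; there replicate 2, not replicate 1, is plastid-rich. Alternatives were a pseudocount of 0.1, no filter, 2 other scalings, blocks for replicate number and for library type, only the groups compared, plastid-poor libraries only, each replicate left out and, added after seeing the data, plastid-rich libraries only.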

Additional observations from a re-analysis of the deposited data

How the results depend on the processing

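On average over the genotypes, the 5 members called lower with ABA kept their direction under every alternative run, and all 5 stayed called under each planned setting other than leaving out a library, where 4 to 5 were called. In plastid-rich libraries alone, an alternative added after seeing the data with 4 libraries in each treatment, 2 were called. In plastid-poor libraries alone the counts within genotypes were 1 in nrp1 nrp2, 0 in FyPP3DN, 0 in nrp1 nrp2 FyPP3DN and 1 in WT, and fitting only the groups compared gave 2 in nrp1 nrp2 and 0 in FyPP3DN; both settings rest on fewer libraries. With each replicate left out in turn, 2 to 3 members were called in nrp1 nrp2, 0 to 1 in FyPP3DN, 1 to 2 in nrp1 nrp2 FyPP3DN and 1 to 2 in WT. ARR7 in nrp1 nrp2 lost its call with no filter (adjusted p = 0.0579), with median-of-ratios scaling (0.0672) and with quantile normalization (0.0559); the cause was not tested. With the replicate number as a block, 5 members were called on average, 5 in nrp1 nrp2, 1 in FyPP3DN, 3 in nrp1 nrp2 FyPP3DN and 2 in WT, so the block added ARR4 in nrp1 nrp2 FyPP3DN and changed no other call of a member. The library type block added ARR9 in nrp1 nrp2 (adjusted p = 0.0388) and ARR4 in nrp1 nrp2 FyPP3DN (adjusted p = 0.0276). The 11 comparisons with 0 members called had 0 under all 172 alternatives run. No call of a member changed sign. Depth limits ARR17, with at most 6 fragments per library, and ARR15, with at most 40.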
